A study of Mus musculus with 6 samples.

Results

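The genes described are 39 members of the unfolded protein response and of protein folding in the endoplasmic reticulum (ER), listed by name from what is known of the pathway. No measured value enters that rule, but the list was drawn up with earlier results of these data known, so its counts beside those of all genes are descriptions. They are 39 of 24539 genes listed for the epididymal white adipose tissue of mice, and all 39 passed the filter on low counts. RNA was sequenced from 3 Jmjd8-KO mice and 3 WT mice, all C57BL/6 and all maintained on a high-fat diet (HFD) with no other treatment. Jmjd8 encodes a JmjC-domain protein reported in the ER lumen. The design compares gene expression in this fat pad between the genotypes. The sources used here do not give the allele, the age of the mice or whether the deletion is limited to a cell type.

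The unfolded protein response is read out by sensors in the ER membrane when unfolded proteins gather in the lumen. IRE1 splices the mRNA of the transcription factor XBP1, ATF6 is cut in the Golgi to release a transcription factor, and PERK phosphorylates the initiation factor eIF2 alpha, which lowers translation in general and favours that of ATF4. ATF6 and XBP1 act on genes of chaperones and of ER-associated degradation, which returns misfolded proteins to the cytosol for the proteasome. ATF4 acts on genes of amino acid supply, redox balance and cell death, and also answers kinases other than PERK. Adipocytes secrete much protein, such as adiponectin and leptin, and obesity is known for ER stress in fat. Gene counts measure mRNA level only, so neither the splicing of Xbp1 nor the cleavage or phosphorylation of the sensors was measured.

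Levels are given as CPM (counts scaled to library size with TMM factors). Total counts lay between 17598696 and 20598473 per library. Jmjd8 was at 39.4, 57.7 and 42.3 CPM in the Jmjd8-KO mice, against 112, 116 and 111 CPM in the WT mice, and fell (log2 fold change -1.28, SE 0.144, adjusted p = 0.0193). Jmjd8 overlaps the opposite-strand gene Stub1, which was at 63.1, 107 and 65.4 CPM in Jmjd8-KO mice and 91.4, 85.7 and 91.6 CPM in WT mice, and without a stated strand setting reads of the 2 genes cannot be told apart. All 10 adipocyte markers were measured, with 24342 to 28653 CPM in sum in Jmjd8-KO mice and 21251 to 22876 CPM in WT mice. Of these, 1 was called higher and 0 lower, and DESeq2 called 6 higher and 0 lower. At an unadjusted p under 0.05, 7 of the 10 were higher and 1 lower, against 8.99% and 10.1% of all genes. A library stood apart in each group. In WT replicate 1 the 12 neural markers summed to 1356 CPM, against 65.0 to 91.2 CPM in the other 5 libraries. Over genes, the chi-square divided by its degrees of freedom was 48.0 and 44.7 for Jmjd8-KO replicate 2 paired with replicates 1 and 3, against 3.05 for replicates 1 and 3. The tissue is a mixture of cells, so fewer cells of a type and less RNA per cell cannot be told apart. Several marker lists differed between the groups. The 12 pan-macrophage markers summed to 2319 to 2670 CPM in Jmjd8-KO mice and 3390 to 3505 CPM in WT mice, with 6 lower and 0 higher. The 8 mesothelial markers summed to 309 to 336 CPM in Jmjd8-KO mice and 153 to 212 CPM in WT mice, with 3 higher and 0 lower. The part of these cell types in the results that follow was not tested.

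Of the 39 members, 1 rose, 0 fell and 38 did not pass at an adjusted p under 0.05. The gene that rose was Sesn2, which encodes sestrin 2, a stress-induced protein that restrains the growth kinase complex mTORC1. Over all 14322 genes tested, 2.12% passed, of which more fell (1.33% of genes) than rose (0.789%). At an unadjusted p under 0.05 there were 12 members, 10 higher and 2 lower, or 30.8% of members against 19.1% of all genes (8.99% higher and 10.1% lower). The 3 Jmjd8-KO values lay outside the 3 WT values in 19 members, 15 above and 4 below, which is 48.7% of members against 29.5% of all genes (14.2% above and 15.3% below). The median log2 fold change of the members was 0.13, against -0.01 over all genes, and 25 of 39 were above 0, against 49.1% of all genes. This median rested in part on Jmjd8-KO replicate 2, without which it was 0.05 and 24 of 39 were above 0, and it was 0.09 without WT replicate 1. Leaving out Jmjd8-KO replicate 2 gave 5 members higher and 0 lower, in a fit where 9.34% of all genes passed and 4.52% rose, namely Sesn2, Asns, Herpud1, Syvn1 and Hyou1. Leaving out WT replicate 1, or any other single mouse, gave 0 members by edgeR, where 0.118% of all genes passed without WT replicate 1. Without that library 4 members had an unadjusted p under 0.05, all higher, or 10.3% of members. Over all genes the share was 13.2% (5.81% higher and 7.38% lower). The larger share of members in either direction seen with all 6 mice was thus not seen there. The share of members higher stayed above that of all genes, at 10.3% against 5.81%, and at 25.6% against 8.99% with all 6 mice. Without both libraries 6 members passed, in a fit that called 19.8% of all genes. DESeq2 called 4 members and 7.25% of all genes, and limma-voom with quality weights 6 members and 14.2% of all genes. The limma-voom fit gave Jmjd8-KO replicate 2 a weight of 0.118, against 1.74 and 1.95 for Jmjd8-KO replicates 1 and 3. It thus leaned little on that library and is not independent of the fit that leaves it out. Scaling by library size alone called 1 member and 2.6% of all genes, and a replicate block 0 members and 0.0349%. Among called genes the lower share was 62.8%, and it was 77.4% with library size scaling and 51.6% by DESeq2.

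**Figure D1:**
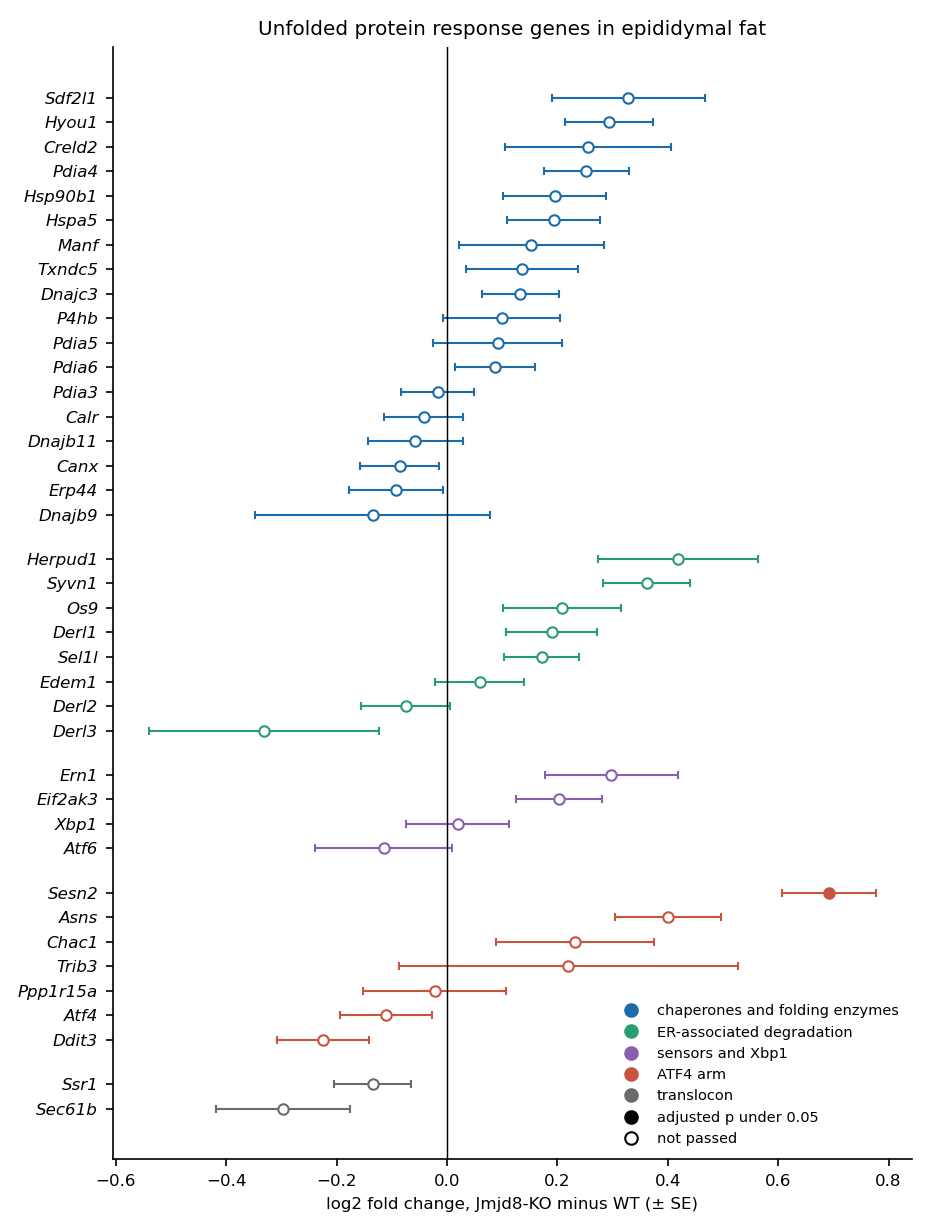
Log2 fold change of each of the 39 members, Jmjd8-KO minus WT, with its SE (horizontal bars, 3 mice per group), grouped and coloured by role. The filled point is the member that passed at an adjusted p under 0.05, Sesn2 at 0.69, and the open points did not pass and lie between -0.33 and 0.42.

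Levels could be compared between genes only per length, for which the deposited RPKM values (reads scaled by gene length and by depth) were used. On that scale the lumenal chaperones led. Calr, the lectin chaperone calreticulin, was highest at 388 ± 9.28 RPKM in Jmjd8-KO mice and 418 ± 17.2 RPKM in WT mice (SD, n = 3 each). Hspa5, the chaperone BiP, followed at 242 ± 19.9 RPKM in Jmjd8-KO mice and 222 ± 2.92 RPKM in WT mice. P4hb, Hsp90b1 and Pdia3 came next, and Hspa5 and P4hb differed by less than their SDs in both groups. At the other end, Derl3, a derlin of secretory cells, was at 1.05 ± 0.150 RPKM in Jmjd8-KO mice and 1.38 ± 0.0871 RPKM in WT mice, the lowest of the 39, and Ern1, which encodes IRE1 alpha, was the next lowest.

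Promoter windows of 300 bases, from 250 before to 50 after the start site, were taken from RefSeq on GRCm38.p6 and were found for 35 of the 39 members. An ER stress response element (ERSE, the half-sites CCAAT and CCACG with any 9 bases between, on either strand), which ATF6 binds with NF-Y, was present in the windows of 9 of these 35 members, or 25.7%, against 0.137% of all genes with a window. They were Calr, Canx, Creld2, Derl3, Dnajc3, Hsp90b1, Hspa5, Pdia6 and Syvn1. The ERSE-II element, ATTGG and CCACG with any 1 base between, was present for Herpud1 and Dnajb11, against 0.0444% of all genes. The element TGATGNAA (called CARE here), a form of the site bound by ATF4 with C/EBP partners, was present for Asns, Chac1, Herpud1, Trib3 and Txndc5, or 14.3% of members against 4.51% of all genes. The XBP1 element TGACGTGG (UPRE) was present for Txndc5, against 0.714% of all genes. The members were listed as known genes of this pathway, so these motif shares describe the list and are not a result of these data. Both strands were searched for each motif, and no matches overlapped within a member. The 11 members with an ERSE or ERSE-II had a median log2 fold change of 0.13, from -0.33 to 0.42, and the 24 members with neither had 0.10, from -0.30 to 0.69. The 5 members with a CARE had log2 fold changes from 0.14 to 0.42, of which none passed. Jmjd8-KO replicate 2 was highest in 4 of these 5, in 6 of the 11 and in 14 of the 24. Over 13 alternative fits Trib3 went as low as -0.21 and Txndc5 as low as 0.0010. Asns, Chac1 and Herpud1 stayed at 0.15 or above. The windows of the only member that rose, of the next ATF4 target, of a pair of degradation genes and of BiP are shown with matched motifs in capitals (CARE in Asns, CARE and then ERSE-II in Herpud1, ERSE in Syvn1 and Hspa5), 5′ to 3′ on the strand of the gene. No letters are capital in the window of Sesn2, which says only that these motifs are not spelled there.
Sesn2: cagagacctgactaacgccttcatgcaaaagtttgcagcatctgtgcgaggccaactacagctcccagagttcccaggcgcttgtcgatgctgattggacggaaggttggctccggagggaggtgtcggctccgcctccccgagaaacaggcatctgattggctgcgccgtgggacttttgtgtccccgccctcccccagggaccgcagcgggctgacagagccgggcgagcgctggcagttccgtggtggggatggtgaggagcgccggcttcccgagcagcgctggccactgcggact
Asns: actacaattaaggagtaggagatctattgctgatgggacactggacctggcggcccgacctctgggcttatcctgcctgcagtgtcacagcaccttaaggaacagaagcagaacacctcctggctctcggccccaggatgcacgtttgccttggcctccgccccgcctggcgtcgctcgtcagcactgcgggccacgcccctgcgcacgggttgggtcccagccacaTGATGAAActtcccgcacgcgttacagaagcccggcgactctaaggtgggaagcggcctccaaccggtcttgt
Herpud1: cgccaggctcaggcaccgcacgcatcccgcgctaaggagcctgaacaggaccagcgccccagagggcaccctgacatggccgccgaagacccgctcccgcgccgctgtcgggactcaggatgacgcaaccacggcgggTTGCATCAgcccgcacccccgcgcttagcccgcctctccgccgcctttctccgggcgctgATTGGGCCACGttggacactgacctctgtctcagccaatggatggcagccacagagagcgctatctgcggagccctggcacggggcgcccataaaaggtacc
Syvn1: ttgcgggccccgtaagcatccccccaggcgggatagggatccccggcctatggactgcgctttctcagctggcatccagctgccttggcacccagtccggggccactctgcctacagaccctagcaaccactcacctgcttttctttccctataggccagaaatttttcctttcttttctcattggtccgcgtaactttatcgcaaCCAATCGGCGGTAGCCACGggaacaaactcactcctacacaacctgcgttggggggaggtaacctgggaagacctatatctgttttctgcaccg
Hspa5: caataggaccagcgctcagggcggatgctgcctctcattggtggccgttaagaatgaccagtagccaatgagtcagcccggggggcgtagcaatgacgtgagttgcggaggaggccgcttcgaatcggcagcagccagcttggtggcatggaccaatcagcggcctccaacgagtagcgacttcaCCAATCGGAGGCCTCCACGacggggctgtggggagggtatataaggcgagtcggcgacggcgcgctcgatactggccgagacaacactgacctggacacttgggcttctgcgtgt
The window of Sesn2 lies at chr4:132510407-132510706 on the minus strand and that of Asns at chr6:7693160-7693459 on the minus strand. Those of Herpud1 at chr8:94386179-94386478, Syvn1 at chr19:6046326-6046625 and Hspa5 at chr2:34771840-34772139 are on the plus strand. The ERSE of Hspa5 starts 65 bases before the start site and that of Syvn1 starts 44 bases before it.

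Among the 18 chaperones and folding enzymes, 0 passed by edgeR. At an unadjusted p under 0.05 there were 3, all higher, or 16.7%, against 8.99% of all genes higher and 19.1% in either direction. DESeq2 called 1 (5.56% against 7.25% of all genes in either direction) and limma-voom 2 (11.1% against 14.2%), all higher. Over all 14322 genes tested, DESeq2 called 503 higher and 536 lower, and limma-voom 998 higher and 1032 lower. Each share was below that of all genes in either direction. Set against genes higher only (8.99% unadjusted, 503 and 998 of 14322 called), each was above. The called shares rest on 1 and 2 genes. The median log2 fold change was 0.12, and 0.04 without Jmjd8-KO replicate 2. Hspa5 was at 657, 769.6 and 676 CPM in Jmjd8-KO mice and 595, 620.3 and 621 CPM in WT mice. All 3 Jmjd8-KO values were above the WT values, with the highest in Jmjd8-KO replicate 2 (log2 fold change 0.19, SE 0.0844, adjusted p = 0.272, and 0.12 without that library). Hsp90b1, the lumenal HSP90 GRP94, had 655, 778 and 656 CPM in Jmjd8-KO mice and 583, 629.7 and 611 CPM in WT mice, again without overlap (0.19, adjusted p = 0.302, and 0.11 without Jmjd8-KO replicate 2).

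Hyou1, a large HSP70 relative that exchanges the nucleotide of BiP, had the smallest p of these 18. Its values were 105, 123 and 113 CPM in Jmjd8-KO mice and 89.8, 94.1 and 93.8 CPM in WT mice. The groups did not overlap (log2 fold change 0.29, SE 0.079, adjusted p = 0.115), and Hyou1 rose without Jmjd8-KO replicate 2 (0.24, adjusted p = 0.0398). Pdia4, the disulfide isomerase ERp72, had 143, 160.4 and 151 CPM in Jmjd8-KO mice and 121, 134 and 126 CPM in WT mice (0.25, SE 0.0768, adjusted p = 0.145). Sdf2l1, a BiP cofactor, had 24.6, 34.99 and 27.6 CPM in Jmjd8-KO mice and 24.1, 22.7 and 22.6 CPM in WT mice. The groups of Sdf2l1 were separated by a small gap only, and its log2 fold change of 0.33 (SE 0.139, adjusted p = 0.261) was 0.17 without Jmjd8-KO replicate 2. Dnajc3, the co-chaperone p58IPK, had 167 to 177 CPM in Jmjd8-KO mice and 148 to 162 CPM in WT mice (0.13, adjusted p = 0.343).

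The other folding genes overlapped between the groups. Calr and Canx, the lectin chaperones calreticulin and calnexin, had log2 fold changes of -0.04 and -0.09, and Pdia3, the isomerase ERp57 that works with them, had -0.02. Pdia5 and Pdia6, further isomerases, had 0.09 each, and Erp44, which holds back unassembled proteins in the early secretory path, had -0.09. Dnajb11, another BiP co-chaperone, had -0.06. For these 7 genes the adjusted p lay at 0.538 or above. In the remaining 5 of the 18, Jmjd8-KO replicate 2 stood apart from the other mice. Creld2, a disulfide isomerase-like protein, was at 31.6 CPM there, with 21.4 and 23.8 CPM in Jmjd8-KO replicates 1 and 3 and 20.8 to 21.96 CPM in WT mice. Manf, a secreted factor retained by BiP, was at 86.7 CPM there, against 62.7 to 64.7 CPM in the other 5 mice. P4hb, the disulfide isomerase PDI and also a subunit of collagen prolyl 4-hydroxylase, was at 737 CPM there, with 575 and 614 CPM in Jmjd8-KO replicates 1 and 3 and 573 to 624 CPM in WT mice. Txndc5, an isomerase of the same family, was at 214 CPM there, against 163 to 186 CPM elsewhere. In contrast Dnajb9, the co-chaperone ERdj4 and a known XBP1 target, was lowest there at 33.1 CPM, against 52.9 to 60.9 CPM in the other 5 mice.

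Jmjd8-KO replicate 2 held the highest value of the 6 mice in 13 of the 18 chaperones and folding enzymes, and in 23 of the 39 members, or 59.0%, against 32.1% of all genes tested. The median of the 18 relative to the WT mean was 0.26 on the log2 scale in that library, against 0.01 and 0.10 in Jmjd8-KO replicates 1 and 3. The 18 summed to 4667, 5250.3 and 4789 CPM in Jmjd8-KO mice and 4505, 4695 and 4695 CPM in WT mice. Of the fibroblast markers, Col1a1, a chain of type I collagen, was at 2493 CPM there, with 1092 and 1126 CPM in Jmjd8-KO replicates 1 and 3 and 1272 to 1392 CPM in WT mice. The 10 fibroblast and progenitor markers summed to 8212 CPM there and to 5702 to 6214 CPM elsewhere, though 7 of the 10 were lowest in that library. The 10 adipocyte markers summed to 28653 CPM there and to 21251 to 24653 CPM elsewhere. Of these 10, 6 were highest in that library and 7 were lowest in WT replicate 1. The part of either list in the chaperone values was not tested. WT replicate 1 held the lowest value in 17 members, or 43.6%, against 18.4% of all genes.

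**Figure D2:**
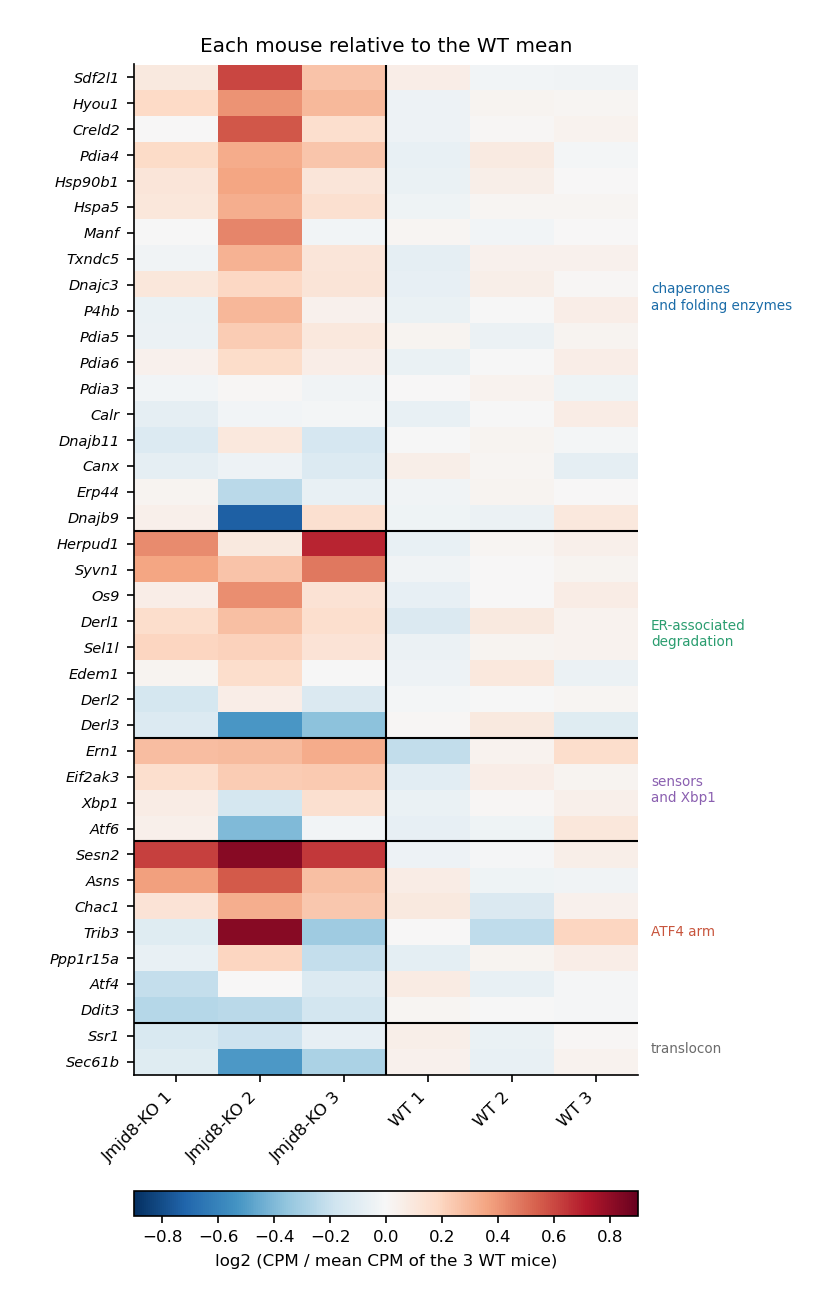
Each row is a member and each column a mouse, Jmjd8-KO left of the vertical line and WT right of it, and the colour gives log2 of the CPM over the mean CPM of the 3 WT mice. Black lines part the roles. Jmjd8-KO replicate 2 carries the strongest colours among the chaperones and is lowest for Dnajb9, while Sesn2, Asns, Syvn1 and Hyou1 are above the WT mean in all 3 Jmjd8-KO mice.

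Of the 8 genes of ER-associated degradation, 6 had positive log2 fold changes and 0 passed by edgeR, with a median of 0.18. At an unadjusted p under 0.05 there were 3, all higher, or 37.5% against 8.99% of all genes higher. Without WT replicate 1 there was 1, higher, or 12.5% against 5.81%. DESeq2 called 1 (12.5% against 7.25% of all genes in either direction) and limma-voom 2 (25.0% against 14.2%), all higher. Syvn1 encodes HRD1, the ubiquitin ligase at the centre of this path. It was at 97.7, 90.9 and 106 CPM in Jmjd8-KO mice and 74.6, 76.6 and 77.7 CPM in WT mice. Every Jmjd8-KO mouse was above every WT mouse, by more than the spread within WT, yet the adjusted p was 0.0695 (log2 fold change 0.36, SE 0.0784). Syvn1 rose without Jmjd8-KO replicate 2 (0.41, adjusted p = 0.0101) and had an adjusted p between 0.168 and 0.242 without any other single mouse. It overlaps the opposite-strand gene Mrpl49, which did not pass the same test (adjusted p = 0.71), and whether the counting used strand is not stated.

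Herpud1, which recruits HRD1 complexes and turns over quickly, was at 93.0, 73.7 and 112 CPM in Jmjd8-KO mice and 66.2, 70.2 and 71.4 CPM in WT mice. Jmjd8-KO replicate 2 lay just above the WT mice and the other Jmjd8-KO mice well above them, the reverse of the order seen in the chaperones. Over all mice its log2 fold change came to 0.42 (SE 0.145, adjusted p = 0.187), to 0.27 without Jmjd8-KO replicate 3, and without Jmjd8-KO replicate 2 to 0.56, where Herpud1 rose (adjusted p = 0.0159). Sel1l, the partner that stabilises HRD1, was at 268, 271 and 255 CPM in Jmjd8-KO mice and 226, 238 and 239 CPM in WT mice (0.17, SE 0.0676, adjusted p = 0.233). Derl1, a channel-forming derlin, had 148 to 161 CPM in Jmjd8-KO mice and 122 to 142 CPM in WT mice (0.19, adjusted p = 0.27, and 0.12 without WT replicate 1).

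The rest of the degradation genes showed smaller or less steady differences. Os9, a lectin that brings misfolded glycoproteins to HRD1, reached 303 CPM in Jmjd8-KO replicate 2, with 237 and 249 CPM in Jmjd8-KO replicates 1 and 3, against 216 to 238 CPM in WT mice (0.21, adjusted p = 0.336, and 0.09 without Jmjd8-KO replicate 2). Edem1, which marks glycoproteins for removal, had a log2 fold change of 0.06, and Derl2 had -0.07. Derl3 was at 1.79, 1.36 and 1.51 CPM in Jmjd8-KO mice and 1.96, 2.08 and 1.81 CPM in WT mice, or 26 to 34 counts against 36 to 41 counts (-0.33, SE 0.209, adjusted p = 0.422). Beside it, the 8 B and plasma cell markers listed in the file summed to 66.3 to 71.8 CPM in Jmjd8-KO mice and 109.5 to 118 CPM in WT mice, with 1 lower (Jchain, the joining chain of secreted antibodies) and 0 higher. Their part in the Derl3 values was not tested.

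Of the sensors and Xbp1, 0 of 4 passed by edgeR, DESeq2 or limma-voom. At an unadjusted p under 0.05, 2 of the 4 were higher, against 8.99% of all genes. Without WT replicate 1 there were 0, against 5.81% of all genes higher. Ern1 was at 15.3, 15.4 and 15.9 CPM in Jmjd8-KO mice and 10.9, 12.9 and 14.1 CPM in WT mice. Its Jmjd8-KO values were close together and above the more scattered WT values (log2 fold change 0.30, SE 0.121, adjusted p = 0.244), and without WT replicate 1, the lowest, the log2 fold change was 0.19. Eif2ak3, which encodes PERK, was at 37.6, 39.5 and 39.7 CPM in Jmjd8-KO mice and 31.7, 35.3 and 34.3 CPM in WT mice, also without overlap (0.20, SE 0.0783, adjusted p = 0.226). Atf6 was at 98.2, 72.4 and 93.9 CPM in Jmjd8-KO mice and 90.7, 92.8 and 102 CPM in WT mice (-0.12, SE 0.125, adjusted p = 0.636). Atf6 was thus lowest in Jmjd8-KO replicate 2, as was Xbp1. The level of Xbp1 was 179, 154 and 189 CPM in Jmjd8-KO mice and 164, 173 and 177 CPM in WT mice (0.02, SE 0.0934, adjusted p = 0.919).

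The ATF4 arm held the only member that rose, beside 6 genes that did not pass. Sesn2 was at 53.1, 61.2 and 53.9 CPM in Jmjd8-KO mice and 33.6, 34.4 and 36.0 CPM in WT mice. The lowest Jmjd8-KO mouse was well above the highest WT mouse, and the means were 56.0 ± 4.46 CPM and 34.6 ± 1.20 CPM (SD, n = 3 each). The level was 1.62-fold higher in Jmjd8-KO fat (log2 fold change 0.69, SE 0.0846, adjusted p = 0.0214). Sesn2 lies on the minus strand of chromosome 4 from 132492032 to 132510501 (GENCODE M21 on GRCm38). The log2 fold change stayed between 0.60 and 0.73 over 13 alternatives, of which 7 kept the call. The call was lost without Jmjd8-KO replicate 1 (adjusted p = 0.116) or 3 (0.0714) and without WT replicate 1 (0.0905), 2 (0.107) or 3 (0.142), and was kept without Jmjd8-KO replicate 2 (0.00514).

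Asns, asparagine synthetase, a standard target of ATF4, was at 42.6, 48.5 and 39.7 CPM in Jmjd8-KO mice and 34.6, 32.1 and 32.2 CPM in WT mice. All Jmjd8-KO values were above all WT values (log2 fold change 0.40, SE 0.0967, adjusted p = 0.0912), and Asns rose without Jmjd8-KO replicate 2 (0.32, adjusted p = 0.0382). Chac1, an enzyme that breaks down glutathione, had 6.11, 7.04 and 6.62 CPM in Jmjd8-KO mice and 5.94, 5.12 and 5.74 CPM in WT mice (0.23, SE 0.143, adjusted p = 0.411). Ddit3, the death-linked transcription factor CHOP, went the other way. It had 17.9, 18.1 and 19.1 CPM in Jmjd8-KO mice, all below the 21.7, 21.3 and 21.3 CPM of the WT mice (-0.22, SE 0.0835, adjusted p = 0.212).

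The mRNA of Atf4 itself was at 103, 119 and 109.6 CPM in Jmjd8-KO mice and 125, 114 and 118 CPM in WT mice (log2 fold change -0.11, SE 0.0833, adjusted p = 0.495). Trib3, a pseudokinase induced by CHOP and ATF4, reached 12.7 CPM in Jmjd8-KO replicate 2, with 6.64 and 5.75 CPM in Jmjd8-KO replicates 1 and 3 and 6.13 to 8.21 CPM in WT mice. Its log2 fold change was 0.22 with that library and -0.21 without it. Ppp1r15a, the phosphatase subunit GADD34 that reverses the phosphorylation of eIF2 alpha, was at 12.7 to 16.9 CPM in Jmjd8-KO mice and 13.9 to 15.4 CPM in WT mice (-0.02). The median of the 7 genes was 0.22, and -0.14 without Jmjd8-KO replicate 2.

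**Figure D3:**
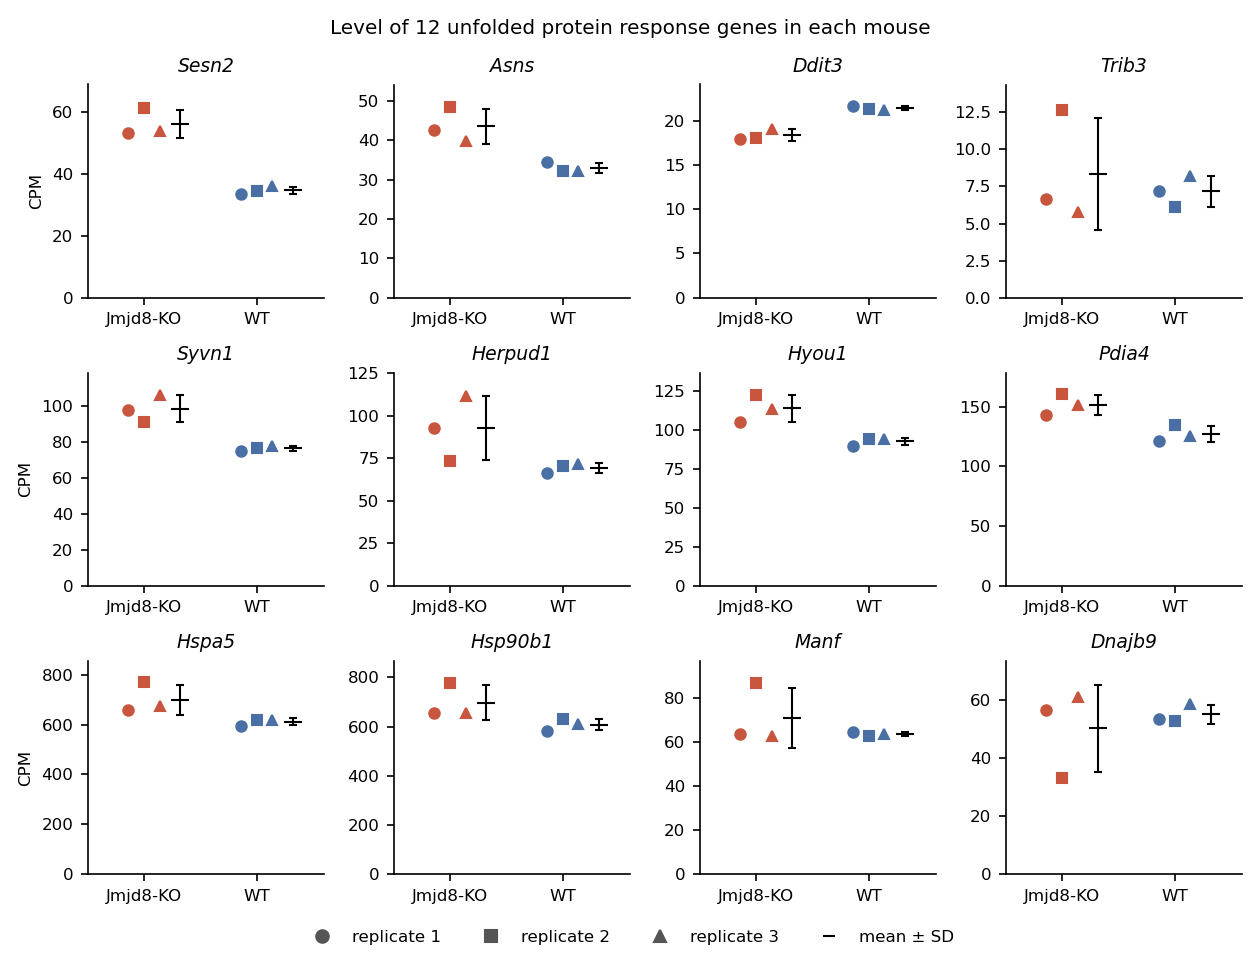
CPM of 12 members in each mouse, Jmjd8-KO (red) left of WT (blue), with circles, squares and triangles for replicates 1, 2 and 3, and the mean ± SD of 3 mice in black. Axes start at 0. Sesn2, Asns, Syvn1, Herpud1, Hyou1, Pdia4, Hspa5 and Hsp90b1 are higher in all 3 Jmjd8-KO mice, without overlap. Ddit3 is lower in all 3 Jmjd8-KO mice, and Trib3, Manf and Dnajb9 have Jmjd8-KO replicate 2 apart from the other mice.

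The translocon, through which new proteins enter the ER, was represented by 2 members, both lower in every Jmjd8-KO mouse, of which 0 passed by edgeR, DESeq2 or limma-voom. Sec61b, a subunit of the channel, was at 21.0, 15.8 and 18.5 CPM in Jmjd8-KO mice and 23.2, 21.5 and 23.1 CPM in WT mice (log2 fold change -0.30, SE 0.121, unadjusted p = 0.0443, adjusted p = 0.249, and -0.20 without Jmjd8-KO replicate 2). Ssr1, a subunit of the translocon-associated protein complex, was at 158, 154 and 165 CPM in Jmjd8-KO mice and 181, 167 and 176 CPM in WT mice (-0.13, SE 0.0702, adjusted p = 0.34).

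Other genes of these pathways were taken from 7 further lists, in which 186 genes were tested and 1 passed, a fall of Atf3. Atf3, a transcription factor induced by ATF4 and by inflammatory signals, was at 38.0, 34.99 and 44.7 CPM in Jmjd8-KO mice and 72.5, 65.2 and 76.4 CPM in WT mice. The groups were far apart (log2 fold change -0.87, SE 0.113, adjusted p = 0.0241). Its log2 fold change lay between -0.97 and -0.78 over 13 alternatives, and 7 kept the call, as for Sesn2. The call was kept without Jmjd8-KO replicate 2 and lost without any other single mouse.

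Among 43 other ATF4 and integrated stress response genes, Atf3 fell, 0 rose and 42 did not pass. The median log2 fold change was -0.0037. DESeq2 called 5 (11.6% against 7.25% of all genes) and limma-voom 9 (20.9% against 14.2%). Others of this list, chosen after their values were seen, went both ways without passing. Gdf15, a stress-induced hormone, had 2.58, 2.76 and 3.14 CPM in Jmjd8-KO mice and 6.39, 4.66 and 5.04 CPM in WT mice (-0.93, adjusted p = 0.0662), and Slc7a5, an amino acid transporter, had -0.87 (adjusted p = 0.102). Gpt2, a mitochondrial alanine transaminase, had 154, 155 and 145 CPM in Jmjd8-KO mice and 105, 122 and 101 CPM in WT mice (0.47, adjusted p = 0.0536). Phgdh, the first enzyme of serine synthesis, had 88.3, 163 and 84.1 CPM in Jmjd8-KO mice and 59.8, 69.6 and 68.1 CPM in WT mice (0.76, adjusted p = 0.173, and 0.39 without Jmjd8-KO replicate 2). Beside these, the macrophage markers given above were lower in Jmjd8-KO fat, and their part in the values of Atf3 and Gdf15 was not tested.

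In the other 6 lists 0 genes passed by edgeR. Of 38 other folding factors, 4 were higher and 0 lower at an unadjusted p under 0.05, with a median of 0.04 over the list. These 4 were 10.5%, against 8.99% of all genes higher and 19.1% in either direction. DESeq2 called 0 and limma-voom 2 (5.26% against 14.2% of all genes). Rcn1, a calcium-binding protein of the lumen, had the smallest p (0.37, adjusted p = 0.163). Of 28 other degradation genes, 2 were higher at an unadjusted p under 0.05, or 7.14% against 8.99% of all genes higher. The median of the 28 was 0.03, and DESeq2 and limma-voom called 0. The smallest p was that of Man1b1, a mannosidase of glycoprotein quality control (0.26, adjusted p = 0.192, and 0.17 without Jmjd8-KO replicate 2). Of 13 other regulators, 2 were higher and 1 lower at an unadjusted p under 0.05, or 23.1% against 19.1% of all genes. DESeq2 called 2 (15.4% against 7.25%) and limma-voom 3 (23.1% against 14.2%). Creb3l2, a transcription factor cut in the Golgi like ATF6, had 67.2, 67.0 and 65.7 CPM in Jmjd8-KO mice and 48.8, 53.4 and 53.4 CPM in WT mice (0.36, SE 0.0696, adjusted p = 0.0537).

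Of 35 other translocon, signal peptidase and oligosaccharyltransferase genes, 8 had positive log2 fold changes. At an unadjusted p under 0.05, 9 were lower and 0 higher, or 25.7% lower against 10.1% of all genes. Without WT replicate 1, 4 of 35 were lower, or 11.4% against 7.38%. DESeq2 called 2 (5.71% against 7.25% of all genes in either direction) and limma-voom 4 (11.4% against 14.2%), all lower. Over all 14322 genes tested, DESeq2 called 536 lower and limma-voom 1032. The shares of this list were thus below those of all genes in either direction and above those of all genes lower. The median was -0.14. Sec11c, a catalytic subunit of the signal peptidase, had 24.6, 21.9 and 23.8 CPM in Jmjd8-KO mice and 30.0, 30.5 and 29.8 CPM in WT mice (-0.36, SE 0.084, adjusted p = 0.0821). Of 22 genes of transport between ER and Golgi, 5 had positive log2 fold changes, with a median of -0.13, and -0.05 without Jmjd8-KO replicate 2. Jmjd8-KO replicate 2 was lowest in 15 of the 22. In this list 2 were lower at an unadjusted p under 0.05, or 9.09% against 10.1% of all genes. DESeq2 called 0 and limma-voom 1 (4.55% against 14.2% of all genes). Kdelr3, a receptor that returns chaperones to the ER, had -0.46 (adjusted p = 0.108). Of 7 mRNAs known in mouse cells to be cleaved by IRE1, 3 had positive log2 fold changes, with a median of -0.05. DESeq2 and limma-voom called 0 of the 7. At an unadjusted p under 0.05, 1 was higher (14.3% against 8.99% of all genes), Col6a1, a chain of type VI collagen (0.24, adjusted p = 0.227).

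**Figure D4:**
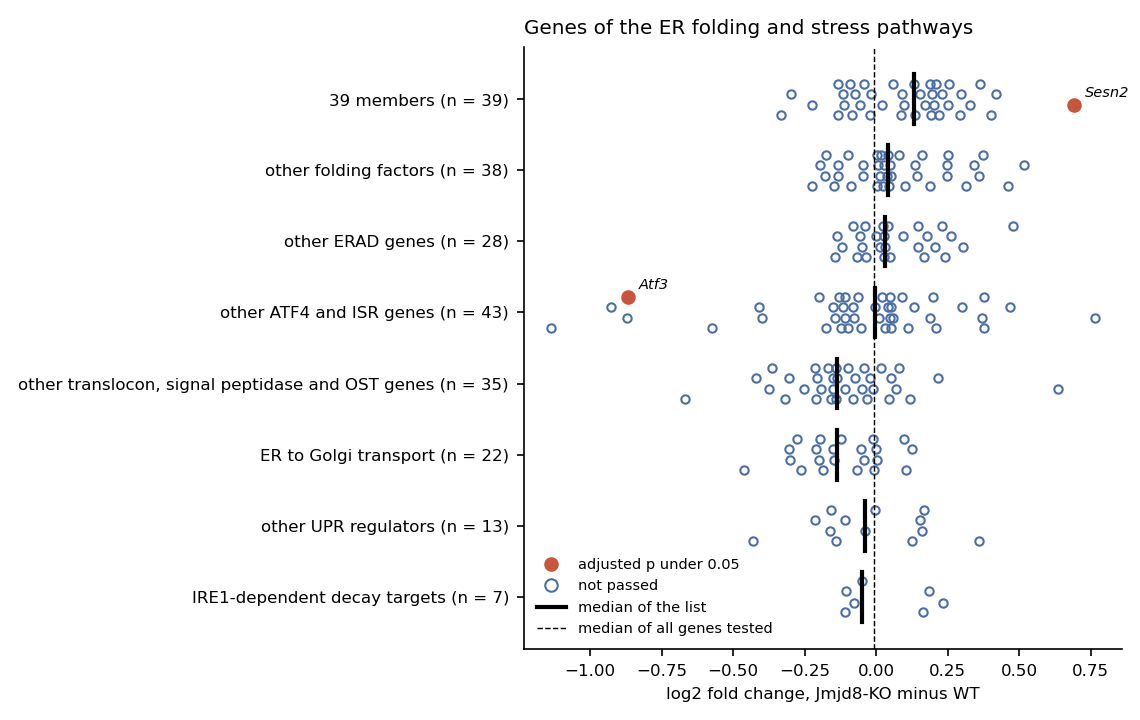
Log2 fold change, Jmjd8-KO minus WT, of the 39 members (top row) and of the tested genes of 7 further lists, 1 point per gene, with the median of each list as a black bar and the median of all genes tested as a dashed line (ISR, integrated stress response; OST, oligosaccharyltransferase; ERAD, ER-associated degradation). The 2 filled points passed, Sesn2 at 0.69 and Atf3 at -0.87, and the medians run from -0.14 for the translocon list to 0.13 for the members.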

How the data were processed

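Counts per gene were deposited by the authors as whole numbers that are not normalized, per the file headers, with RPKM values beside them, also made by the authors. STAR, featureCounts and mm10 are named in the submitters' processing notes. The sources used here do not give versions, annotation, strand setting or how reads shared between genes were handled. RPKM was used only to compare levels between genes.

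Genes were kept by filterByExpr (minimum count 10), scaled by TMM and tested with edgeR 4.0.16 in R 4.3.3 (glmQLFit, glmQLFTest, genotype as the only term, 3 mice against 3). Benjamini-Hochberg adjustment ran over 14322 genes, and a gene passed under 0.05. SEs were computed from the log2 fold change and F. Alternatives used DESeq2 1.42.0, limma-voom with quality weights (limma 3.58.1), other filters and scaling, a replicate block, and mice left out. The fit was also run on simulated counts. These held no library that stood apart like Jmjd8-KO replicate 2 or WT replicate 1, so they cannot check calls that depend on those libraries. Members, lists and tests were chosen with earlier results of these data known. Members that passed here or in an alternative were described in full, then those with the smallest p in each role up to 3, and from each further list the genes that passed or else the smallest p. Other members were described after their values were seen. Marker lists not named in the report gave these counts: of 9 T and NK cell markers 2 fell, of 8 mast cell markers 1 fell, of 8 endothelial markers 0 passed (1 at an unadjusted p under 0.05, 1 by DESeq2), and of 12 epididymal and seminal vesicle markers 7 had no count in any library. Of 10 fibroblast and progenitor markers 0 passed (2 lower at an unadjusted p under 0.05, 1 by DESeq2), and 1 epididymal marker, Crisp1, fell. The design text speaks of 3 mice for each genotype.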

Additional observations from a re-analysis of the deposited data

How the results depend on the processing

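Over 13 alternatives, 611 values of 47 genes were recomputed. Of these 544 kept their direction and their side of the threshold, 28 passed where they had not, 18 no longer passed and 21 changed sign, all 21 in members that did not pass. The members that passed numbered 1, with 4 by DESeq2, 6 by limma-voom, 6 without both Jmjd8-KO replicate 2 and WT replicate 1, 0 with the replicate block, and 0 to 5 without single mice. The further pathway genes that passed numbered 1, with 9 by DESeq2, 19 by limma-voom, 31 without both libraries, 0 with the replicate block and 0 to 14 without single mice. All genes that passed numbered 304, with 1039 by DESeq2, 2030 by limma-voom, 156 with no filter, 2833 without both libraries, 5 with the replicate block and 0 to 1351 without single mice. Signs changed without both libraries for P4hb (-0.041), Dnajb9 (0.074), Manf (-0.0034), Edem1 (-0.014) and Trib3 (-0.21), by limma-voom for P4hb (-0.016), Dnajb9 (0.057) and Trib3 (-0.18), and with library size scaling for Edem1 (-0.017) and Xbp1 (-0.056). Without single mice the log2 fold change spanned 0 for P4hb (-0.012 to 0.17), Dnajb9 (-0.29 to 0.094), Manf (-0.015 to 0.24), Atf6 (-0.20 to 0.0095), Xbp1 (-0.043 to 0.10), Trib3 (-0.21 to 0.43) and Ppp1r15a (-0.14 to 0.067), and for Edem1 it lay between 0.0087 and 0.10. The cause was not tested. Same-numbered samples showed no sign of pairing. Their deviations from the group means correlated at -0.019, -0.033 and 0.017, and not every sample correlated best with its own number. A small shared effect could be missed by this check, since it runs over all genes with 3 mice a group. With the replicate block Sesn2 had an adjusted p of 0.0822 and Atf3 and Jmjd8 also did not pass. Differences of the size seen in most members, with 3 mice a group, did not stand out from the spread between mice at the adjusted threshold.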
